A study of Rattus norvegicus with 6 samples.

Results

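Spermatogonial stem cells live in a niche in which Sertoli and peritubular cells secrete signals that germ cells read through receptor kinases. Glial cell line-derived neurotrophic factor (GDNF) binds the coreceptor GFRA1 and the kinase RET on undifferentiated spermatogonia and sustains their self-renewal. KIT ligand from Sertoli cells acts on the KIT receptor of differentiating spermatogonia, and fibroblast growth factor 2 (FGF2) acts through FGF receptors. ETV5 and BCL6B are transcription factors that answer these signals inside the stem cell. The 10 genes of this circuit, Gdnf, Kitlg, Fgf2, Gfra1, Ret, Kit, Fgfr1, Fgfr3, Etv5 and Bcl6b, were chosen by symbol and each matched 1 row among the 35291 genes of the table.

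RNA-Seq was available for testicular tissue of 6 male Sprague-Dawley rats. The 3 DM rats had diabetes induced by streptozotocin (STZ), a toxin of pancreatic beta cells, injected once at 35 mg/kg after a period on a high-fat diet, and the 3 Nor rats had received citrate buffer. Testes were taken 8 weeks after the injection. Whether the Nor rats had also been on the high-fat diet is not given in the sources used here, so diabetes and diet cannot be told apart. Each library is whole testis, in which a smaller number of cells of a type cannot be told apart from less RNA per cell.

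The values are FPKM, fragments per kilobase of transcript scaled to library size, which allow levels to be compared between genes. Depth in reads is unknown for want of counts, but the libraries differed little in depth, with a relative depth of 0.966 to 1.09 in DM and of 0.893 to 1.02 in Nor against a mean of 1. Testis identity was plain in each library, since the 6 spermatid markers summed to between 7503 and 10178 FPKM. DM and Nor were compared by limma, on log2(FPKM + 0.1), for the 20338 genes that averaged 0.5 FPKM or more, and every log2 fold change is DM minus Nor on that scale, which shrinks the differences of low genes. A gene met the criterion of the study when its log2 fold change was 1 or more in either direction and its unadjusted p-value from limma lay under 0.05. Adjusted p-values are Benjamini-Hochberg values over all genes tested. With 3 rats in each group an exact permutation test cannot go below p = 0.1.

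Of the 10 niche genes, 7 reached the filter and 3, Fgf2, Fgfr3 and Bcl6b, lay below it. Of the 7 tested, 0 met the criterion, which 1.24% of all genes tested met, and 0 had an adjusted p-value below 0.05 from limma, against 0.0344% of all genes. Kitlg, Kit and Fgfr1 were lower in all 3 DM rats than in any Nor rat. Groups without overlap and lower in DM occurred in 8.42% of all genes tested. An unadjusted p-value below 0.05 with a lower level in DM was found for 2 of the 7, Kit and Fgfr1, against 4.99% of all genes tested. The median log2 fold change of the 7 genes was -0.18, and that of all genes tested was -0.021.

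**Figure D1:**
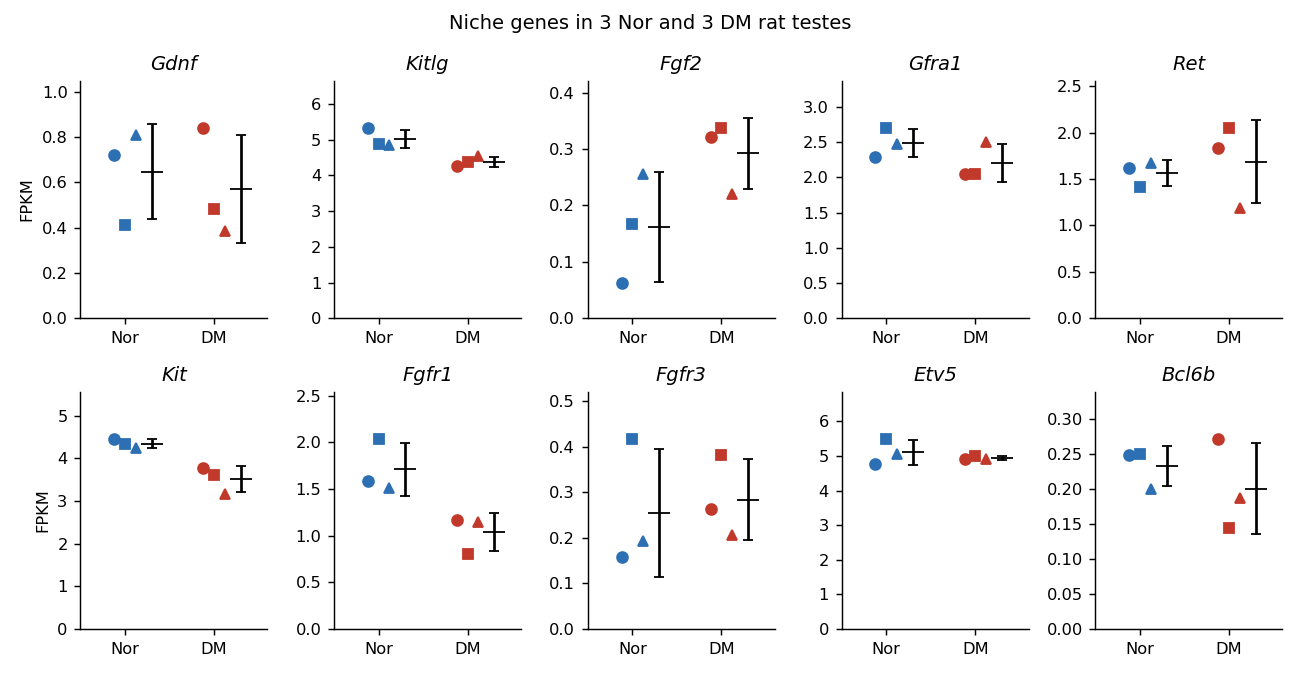
FPKM of the 10 niche genes (y axis, from 0) in the 3 Nor and 3 DM testes, with circles, squares and triangles for replicates 1, 2 and 3 and a black bar for the mean ± SD. The DM rats lie below the Nor rats for Kitlg, Kit and Fgfr1, and the groups overlap for the other 7 genes.

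Kitlg, the ligand that Sertoli cells present to differentiating spermatogonia, was the most abundant of the 3 ligands. Its level was 4.26, 4.36 and 4.53 FPKM in the DM rats and 5.32, 4.89 and 4.85 FPKM in the Nor rats. The highest DM rat stayed below the lowest Nor rat, and the means were 4.39 ± 0.139 and 5.02 ± 0.257 FPKM (SD, n = 3 each). This was a difference of -0.19 on the log2 scale (SE 0.097, 95% confidence interval from -0.42 to 0.037), with an adjusted p of 0.742 from limma. The table gives the gene total, so that the membrane-bound and the soluble forms of the ligand, which come from alternative splicing, are not separated.

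Kit, the receptor of this ligand, marks differentiating spermatogonia and is also expressed by Leydig cells. Its level was 3.78, 3.61 and 3.18 FPKM in the DM rats and 4.45, 4.33 and 4.24 FPKM in the Nor rats. All DM rats were thus below all Nor rats, at 3.52 ± 0.311 against 4.34 ± 0.105 FPKM (SD, n = 3 each), and the mean was 18.9% lower. On the log2 scale Kit differed by -0.298 (SE 0.11, 95% interval from -0.56 to -0.035). The unadjusted p-value from limma, 0.0314, did not survive adjustment (adjusted p = 0.635). Over the 6 fits that omitted a single rat it ran from 0.0330 to 0.0920 and exceeded 0.05 in all but the fit without DM replicate 1, while the difference stayed between -0.35 and -0.23.

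The sequences before the transcription starts of this ligand and its receptor are shown because the levels of both were lower in DM without overlap. They come from RefSeq (GRCr8), whose table of promoters holds 8 of the 10 genes, and end at the base before the outermost annotated start. Fgfr1 and Bcl6b were not among them. The Kit stretch is chr14:32978896-32979062 on the minus strand and the Kitlg stretch is chr7:36782410-36782620 on the plus strand. They are written 5′ to 3′, and capitals mark matches on either strand to GGGCGG (a GC box) and TATAAA.
Kit: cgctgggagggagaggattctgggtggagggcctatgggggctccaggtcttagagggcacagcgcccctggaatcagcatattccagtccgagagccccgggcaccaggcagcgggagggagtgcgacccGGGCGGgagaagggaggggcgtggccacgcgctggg
Kitlg: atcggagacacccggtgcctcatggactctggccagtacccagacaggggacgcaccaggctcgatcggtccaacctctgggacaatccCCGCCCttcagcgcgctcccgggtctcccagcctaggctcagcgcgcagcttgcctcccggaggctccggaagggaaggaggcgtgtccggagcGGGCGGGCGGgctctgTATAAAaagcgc

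Kit held 1 match to GGGCGG in 167 bases, and 18.9% of 33469 promoters held at least 1 in the first 167 bases of their windows. The stretches of the other promoters were counted from the upstream end and were not cut at each gene's own start. The shares and medians given here are therefore matched in length but not in distance from the start. Kitlg held 3 matches to it in 211 bases, of which 2 overlap each other, and 26.0% of promoters held at least 1. TATAAA was found once in Kitlg, near the end of its stretch, and in 10.6% of promoters. It was not found in Kit, for which the share was 8.42%. Neither stretch held CCAAT or the E-box CANNTG on either strand, which were found in 24.0% and 51.8% of promoters over the length of Kit and in 30.2% and 59.7% over that of Kitlg. The share of G and C was 70.1% in Kit and 67.8% in Kitlg, where the medians of all promoters were 50.3% and 50.7%.

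Fgfr1, a receptor of FGF2, showed the largest difference of the 7 genes tested. Its level was 1.17, 0.808 and 1.14 FPKM in the DM rats and 1.59, 2.03 and 1.51 FPKM in the Nor rats. The groups did not overlap, and the mean of 1.04 ± 0.201 FPKM in DM was 39.2% below that of 1.71 ± 0.283 FPKM in Nor (SD, n = 3 each). Fgfr1 thus differed by -0.67 on the log2 scale (SE 0.22, 95% interval from -1.20 to -0.15), with an unadjusted p of 0.0186 and an adjusted p of 0.570 from limma. Without DM replicate 2, the lowest of all, the unadjusted p-value from limma was 0.0551, and without Nor replicate 2, the highest of all, it was 0.0699. Its difference lay between -0.76 and -0.52 over the 6 fits that omitted a single rat and was -0.41 with a pseudocount of 1.

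Among all genes tested, the gene whose log2 values ran closest to those of Fgfr1 across the 6 libraries, each centred on its own mean, was Acsf2, which encodes an acyl-CoA synthetase, at a Euclidean distance of 0.129 on the log2 scale. Acsf2 was at 1.17, 0.884 and 1.20 FPKM in the DM rats and at 1.77, 2.03 and 1.58 FPKM in the Nor rats, so that its lowest and highest libraries were those of Fgfr1. Such closeness over 6 libraries is a description of the profiles only.

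**Figure D2:**
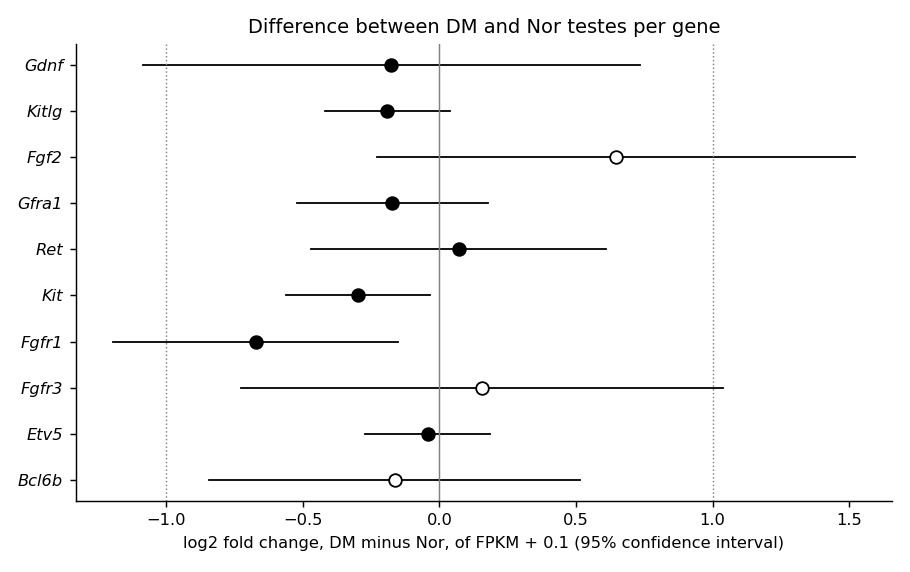
Log2 fold change (DM minus Nor, x axis) of each niche gene with its 95% confidence interval from limma. Filled points are the 7 genes tested, open points are the 3 genes below the filter, taken from the fit without a filter, and dotted lines mark -1 and 1. The intervals of Kit and Fgfr1 lie below 0.

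The GDNF arm showed no difference beyond the spread between rats. Gdnf itself was low and scattered, at 0.838, 0.485 and 0.385 FPKM in the DM rats and 0.720, 0.414 and 0.811 FPKM in the Nor rats. The highest and the lowest value of the 6 were both in DM. Gdnf averaged 0.570 ± 0.238 FPKM in DM and 0.648 ± 0.208 FPKM in Nor (SD, n = 3 each), a difference of -0.18 on the log2 scale (SE 0.39, adjusted p of 0.959 from limma). Its 95% interval ran from -1.09 to 0.73, the widest of the 7 genes tested, and thus included a change of -1.

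Gfra1, which encodes the GDNF-binding coreceptor and marks stem and early progenitor spermatogonia, was at 2.04, 2.05 and 2.51 FPKM in the DM rats and at 2.29, 2.69 and 2.47 FPKM in the Nor rats. DM replicate 3 lay within the Nor range and the others lay below it. Gfra1 differed by -0.17 on the log2 scale (SE 0.15, 95% interval from -0.52 to 0.18), with an adjusted p of 0.872 from limma. Ret, the signalling kinase of the complex, was at 1.83, 2.05 and 1.19 FPKM in the DM rats and at 1.62, 1.41 and 1.67 FPKM in the Nor rats. The DM rats lay on both sides of the Nor range, and Ret differed by 0.071 on the log2 scale (SE 0.23, 95% interval from -0.47 to 0.61), with an adjusted p of 0.974 from limma.

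Etv5 was the most abundant niche gene and the steadiest in DM. Its level was 4.90, 5.01 and 4.91 FPKM in the DM rats and 4.77, 5.48 and 5.05 FPKM in the Nor rats, and the DM rats lay inside the Nor range. Etv5 differed by -0.044 on the log2 scale (SE 0.098, adjusted p of 0.960 from limma), and its 95% interval ran from -0.27 to 0.19. Loss of Etv5 from the testis is known to exhaust the stem cell pool. The intervals of Kitlg, Kit, Gfra1, Ret and Etv5 lay wholly between -1 and 1, while those of Gdnf and Fgfr1 extended below -1.

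The remaining 3 genes, which did not reach the filter, had low values throughout. Fgf2, the ligand of the FGF arm, was at 0.321, 0.336 and 0.220 FPKM in the DM rats and at 0.0616, 0.166 and 0.256 FPKM in the Nor rats. DM replicates 1 and 2 were above every Nor rat and DM replicate 3 was within the Nor range (exact permutation test, p = 0.2). In the fit without a filter the log2 fold change of Fgf2 was 0.65 with an interval from -0.23 to 1.52 (adjusted p = 0.827 from limma). Nudt6 lies on the opposite strand and, in RefSeq (GRCr8), shares 766 bases with Fgf2. The labels do not say that strand was kept, so the reads of the shared stretch cannot be assigned with certainty. Nudt6, looked up after the values of Fgf2 were seen, was higher than Fgf2, at 1.32 to 1.58 FPKM in DM and 1.31 to 1.39 FPKM in Nor.

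Fgfr3, a second FGF receptor and a marker of stem-like spermatogonia in primates, ranged from 0.207 to 0.382 FPKM in DM and from 0.157 to 0.416 FPKM in Nor. Bcl6b, a GDNF-responsive repressor, ranged from 0.144 to 0.271 FPKM in DM and from 0.200 to 0.250 FPKM in Nor. For each of them one group's range enclosed the other's. Without a filter their log2 fold changes were 0.16 and -0.16 (adjusted p = 0.952 and 0.927 from limma).

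Ordered by their mean over the 6 rats, the levels ran from Etv5 at 5.02 FPKM through Kitlg at 4.70, Kit at 3.93, Gfra1 at 2.34, Ret at 1.63, Fgfr1 at 1.38, Gdnf at 0.609, Fgfr3 at 0.269 and Fgf2 at 0.227 to Bcl6b at 0.217 FPKM. Of the neighbours in this order, Kit and Gfra1 alone did not overlap over the 6 rats, with the lowest Kit value at 3.18 and the highest Gfra1 value at 2.69 FPKM. The values of Kit, Kitlg, Fgfr1 and Fgfr3 are written with more than 6 decimals, as sums of several values would be, while those of the other 6 genes are not. Among all genes tested, 9.47% of the 4655 genes written that way and 8.11% of the 15683 others were lower in DM without overlap. Whether such values are sums is not stated in the sources used here. Any part of summing in the lower values of Kit, Kitlg and Fgfr1 was not tested.

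Balance between the arms was read as log2 ratios of FPKM + 0.1 within each library, in which the scaling between libraries cancels except as far as the added 0.1 weighs on low genes. The difference of the mean log2 ratio between DM and Nor was 0.014 for Gdnf to Kitlg and 0.13 for Gfra1 to Kit, with overlapping groups (exact permutation test, p = 0.9 and p = 0.7). Fgfr1 to Fgfr3 was at 1.81, 0.91 and 2.02 in DM and at 2.72, 2.05 and 2.46 in Nor, a difference of -0.83 without overlap, though Fgfr3 rests on low values. It was -0.496 without DM replicate 2 and -0.446 with a pseudocount of 1, and with a pseudocount of 0.01 the groups no longer lay apart (exact permutation test, p = 0.2). Kitlg relative to the mean log2 level of the 10 Sertoli cell markers was at -0.64, -0.56 and -0.61 in DM and at -0.37, -0.38 and -0.031 in Nor. This was a difference of -0.34 without overlap, which was -0.23 without Nor replicate 3, while Kitlg alone differed by -0.19. The marker mean gives equal weight to Amh, which lay below the filter, and to Rhox5, which ran from 0.124 to 1.22 FPKM in Nor. Kit relative to the 7 genes listed as differentiating spermatogonia markers was at -0.71, -0.56 and -0.99 in DM and at -0.44, -0.43 and -0.46 in Nor. This was a difference of -0.31 without overlap that was -0.19 without DM replicate 3, while Kit alone differed by -0.298. For these 3 ratios the exact permutation test gave p = 0.1, the smallest possible, and 0.233 after adjustment over the 7 ratios compared. Gdnf relative to the Sertoli cell markers differed by -0.33 and Gfra1 relative to the undifferentiated spermatogonia markers by -0.14, with overlapping groups (exact permutation test, p = 0.6 and p = 0.5). Both rested on single rats, since the former was -0.029 without Nor replicate 3 and the latter -0.0010 without Nor replicate 2.

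**Figure D3:**
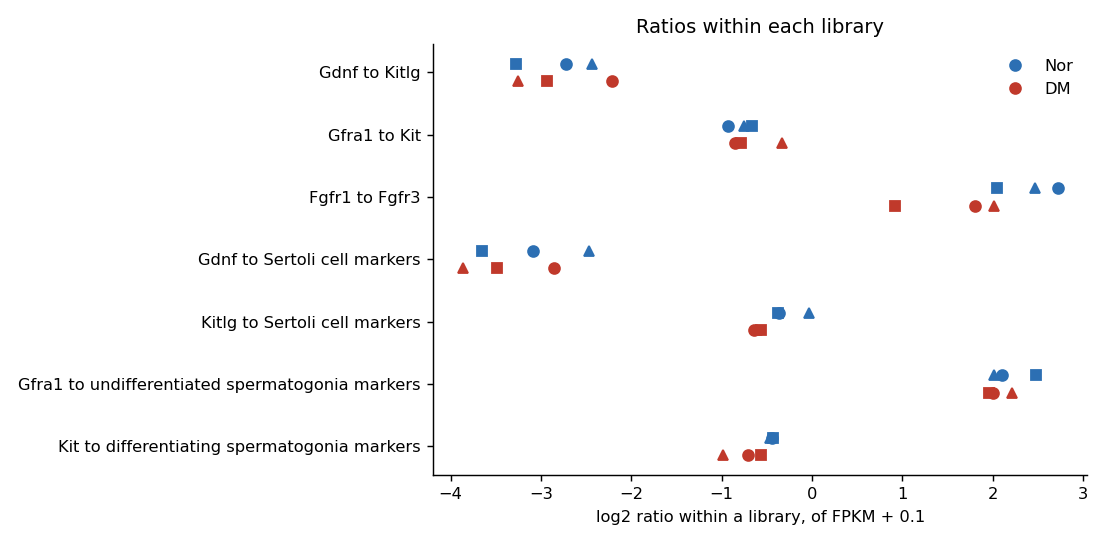
Log2 ratio of FPKM + 0.1 within each library (x axis) for 7 ratios, with blue for the 3 Nor rats, red for the 3 DM rats and circles, squares and triangles for replicates 1, 2 and 3. The DM rats lie left of the Nor rats for Fgfr1 to Fgfr3, Kitlg to Sertoli cell markers and Kit to differentiating spermatogonia markers, and overlap them elsewhere.

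The cells that make and receive these signals were checked with marker lists. Of the 9 Sertoli cell markers tested, 0 had an unadjusted p-value below 0.05, in either direction, against 7.46% of all genes tested. Their log2 fold changes were positive for 8 and negative for 1, with a median of 0.10. Of all genes tested 55.6% had a negative one. The summed level of the Sertoli cell markers was 394 to 416 FPKM in DM and 344 to 421 FPKM in Nor. Wt1, which specifies Sertoli cells, was at 13.5 ± 0.430 FPKM in DM and 12.2 ± 0.286 FPKM in Nor (SD, n = 3 each), higher without overlap, as were 4.56% of all genes tested (adjusted p = 0.703 from limma). Clu, a secreted chaperone of Sertoli cells, had a log2 fold change of 0.10. It made up most of the Sertoli sum, at 253 to 269 FPKM in DM and 210 to 272 FPKM in Nor. Of the 11 undifferentiated spermatogonia markers, 5 were tested and 0 had an unadjusted p-value below 0.05, against 7.46% of all genes tested. The 11 summed to 15.1 to 20.2 FPKM in DM and 16.9 to 21.1 FPKM in Nor. Id4 made up most of this sum, at 10.5 to 15.2 FPKM in DM and 11.6 to 15.2 FPKM in Nor. In this list Nanos2 had a log2 fold change of 0.44 and Tspan8 of -0.23. The 7 genes listed as differentiating spermatogonia markers, not all of them confined to those cells, summed to 96.7 to 113 FPKM in DM. Their sum in Nor was 88.7 to 92.4 FPKM, so that it was higher in DM without overlap. Uchl1 and Dmrtb1 made up most of this sum, and without them, a choice made after seeing the data, it was 14.9 to 21.3 FPKM in DM and 17.0 to 18.4 FPKM in Nor, with overlap. Of the 7 genes 4 had a positive log2 fold change, and Sohlh1 at -0.39, Stra8 at -0.17 and Dnmt3b at -0.15 had a negative one, of which Dnmt3b alone was lower in DM without overlap. Uchl1 is a deubiquitinase also found in undifferentiated spermatogonia. It was the only one of the 7 with an unadjusted p-value below 0.05 from limma, against 7.46% of all genes tested. It was at 47.5 ± 4.91 FPKM in DM and 37.3 ± 3.07 FPKM in Nor (SD, n = 3 each; log2 fold change 0.34, adjusted p = 0.485 from limma). In the same list the log2 fold change of Sohlh2, a regulator of spermatogonial differentiation, was 0.17.

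Leydig cell markers, taken as a sum, were lower in the same rats as Kit and Fgfr1. Singly, 5 were lower in DM without overlap, as were 8.42% of all genes tested. Hsd17b3 overlapped, at 1.96 FPKM in DM replicate 3 and 1.84 FPKM in Nor replicate 2. Of the 6 markers found in the table, 5 met the criterion, each lower in DM, against 0.846% of all genes tested, and their summed level was 27.3 to 57.3 FPKM in DM and 84.5 to 117 FPKM in Nor. None of them was at 0 in any library. Cyp17a1, an enzyme of testosterone synthesis, had a log2 fold change of -1.60 and an adjusted p of 0.0415 from limma. That adjusted p exceeded 0.05 without a filter (0.0788), without the eBayes trend (0.0909), with the replicate number as a block (0.186) and without Nor replicate 3 (0.151) or DM replicate 1, 2 or 3 (0.129, 0.137 and 0.111), while the log2 fold change lay between -1.71 and -1.43 in all fits run. The other 4 were Insl3, a Leydig cell hormone, at -1.62, Hsd17b3, which makes testosterone, at -1.26, Star, which carries cholesterol into mitochondria, at -1.24, and Cyp11a1, which cleaves its side chain, at -1.16. Lhcgr, the receptor of luteinizing hormone, fell just short of the criterion at -0.999. Within DM the order of the Leydig sum was replicate 2, 1 and 3 from low to high, and that of Fgfr1 was replicate 2, 3 and 1. Kit was lowest in replicate 3, in which the Leydig sum was highest. Relative to the Nor mean, the DM rats held 26.8% to 56.3% of the Leydig sum, 47.2% to 68.3% of Fgfr1, 73.1% to 87.1% of Kit and 84.9% to 90.3% of Kitlg. The part of Leydig cells in the levels of Kit and Fgfr1 was not tested.

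**Figure D4:**
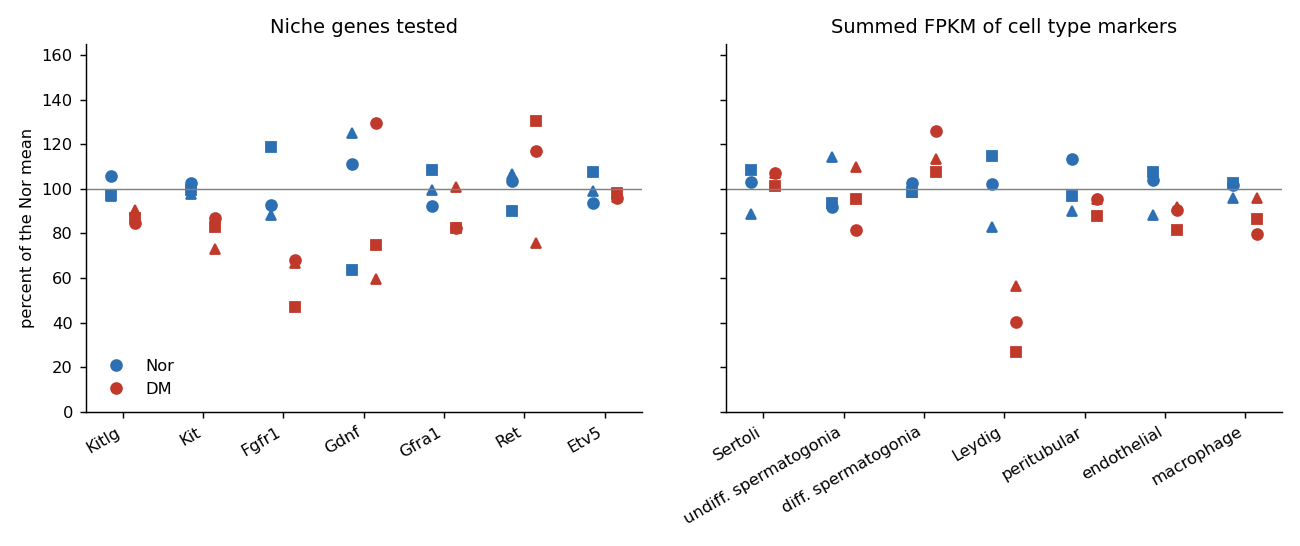
Each library as percent of the Nor mean (y axis, from 0), for the 7 niche genes tested (left) and for the summed FPKM of 7 marker lists (right), with blue for Nor, red for DM and circles, squares and triangles for replicates 1, 2 and 3. The DM rats lie below the Nor rats for Kitlg, Kit, Fgfr1 and the Leydig cell sum, which reaches down to 26.8%.

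Among the other somatic cells, 3 of 6 macrophage markers had an unadjusted p-value below 0.05, each lower in DM, against 4.99% of all genes tested, and 0 met the criterion. The macrophage sum was 27.0 to 32.4 FPKM in DM and 32.4 to 34.7 FPKM in Nor, and DM replicate 3 overlapped the lowest Nor rat. Mrc1 made up most of this sum, at 18.5 to 23.5 FPKM in DM and 21.2 to 22.0 FPKM in Nor. C1qa, a complement subunit made by macrophages, had a log2 fold change of -0.82 and an adjusted p of 0.438 from limma. The unadjusted p-value was below 0.05 for 0 of 5 peritubular myoid cell markers and 0 of 3 endothelial markers tested. Over all genes tested that share was 7.46% in both directions. In these lists the intermediate filament gene Des had a log2 fold change of -0.25, the smooth muscle actin gene Acta2 of -0.16, the angiopoietin receptor gene Tek of -0.24 and the cadherin gene Cdh5 of -0.15. Beside the same 7.46%, the unadjusted p-value was below 0.05 for 0 of 6 spermatocyte markers, with Tex101 at 0.15 and Spo11 at 0.078. It was also below 0.05 for 0 of 6 spermatid markers, with Prm1 at 0.12 and Spaca1 at -0.093. The medians of the spermatocyte and spermatid markers were 0.032 and -0.072.

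The wider pathways showed few differences, and 0 genes of the pathway lists met the criterion. Of the 10 further GDNF family ligands, receptors and binding proteins 3 were tested, and 1 of them, Sdc3, had an unadjusted p-value below 0.05, against 7.46% of all genes tested. Sdc3 encodes syndecan-3, a heparan sulfate proteoglycan that binds GDNF. It was at 0.548, 0.454 and 0.538 FPKM in the DM rats and at 0.926, 0.982 and 1.02 FPKM in the Nor rats. The groups lay far apart relative to their spread, with a log2 fold change of -0.82 and an adjusted p of 0.517 from limma, but close to the filter. Ncam1, an alternative receptor of GDNF, had a log2 fold change of -0.068.

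Of the 16 further FGF ligands 4 were tested, Fgf7, Fgf18, Fgf21 and Fgf22, with log2 fold changes between -0.13 and 0.13. The confidence intervals from limma were wide for Fgf18, from -2.49 to 2.23, and for Fgf22, from -0.84 to 1.09. Those of Fgf7 and Fgf21 ran from -0.66 to 0.68 and from -0.198 to 0.388. Fgf18 ranged from 0.345 to 2.23 FPKM in DM and from 0.152 to 2.87 FPKM in Nor. Its interval included a change of 1 in either direction. Fgf21 was at 3.79 ± 0.201 FPKM in DM and 3.56 ± 0.386 FPKM in Nor (SD, n = 3 each), and Fgf22 had a log2 fold change of 0.13 at 0.689 and 0.664 FPKM. Fgf4 and Fgf23 were listed at 0 in every library. Of the 5 other FGF receptors and coreceptors only the klotho gene Kl was tested, with a log2 fold change of -0.13, and Fgfr2, Fgfr4, Fgfrl1 and Klb lay below the filter. Fgfr1 was therefore the only receptor kinase gene of the FGF family above the filter.

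Downstream of the receptors, 16 rows for adaptors and kinases were tested, and 1, Pik3r1, had an unadjusted p-value below 0.05, a share of 6.25% beside 7.46% over all genes tested. Pik3r1 encodes the p85-alpha regulatory subunit through which phosphoinositide 3-kinase docks on KIT and other receptors. It was at 1.76, 2.06 and 2.87 FPKM in the DM rats and at 3.38, 3.13 and 3.08 FPKM in the Nor rats, lower without overlap (log2 fold change -0.53, adjusted p = 0.613 from limma). The median log2 fold change of the list was -0.00024, and Fyn, a Src family kinase, was at -0.099.

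Of the GDNF-responsive spermatogonial genes 7 of 10 were tested and 0 had an unadjusted p-value below 0.05, against 7.46% of all genes tested. The median log2 fold change of the 7 was -0.18. Cxcr4, the receptor of the chemokine CXCL12, had a log2 fold change of -0.26 and Nanos2, a repressor of differentiation, of 0.44. Of the feedback genes of the FGF and ERK pathway 10 of 13 were tested, with a median of -0.196. Of these 0 had an unadjusted p-value below 0.05, beside the same 7.46%. The summed level of this list was 25.3 to 25.7 FPKM in DM and 27.2 to 30.6 FPKM in Nor. Of the 10 genes tested, 0 lay apart between the groups on their own, against 8.42% of all genes tested that were lower in DM without overlap. Their log2 fold changes were negative for 6 and positive for 4. Spred3 weighed most in the sum, at 9.54 to 10.7 FPKM in DM and 10.2 to 12.6 FPKM in Nor. Spred1 and Spred3, inhibitors of RAS signalling, came closest to an unadjusted p-value of 0.05 from limma. Their log2 fold changes were -0.33 and -0.23 (adjusted p = 0.675 and 0.712 from limma).

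Other signals of the niche included 2 genes of 9 tested that had an unadjusted p-value below 0.05, both lower in DM, against 4.99% of all genes tested. Cxcl12, a chemokine that keeps stem cells in the niche, was at 0.950, 0.830 and 0.875 FPKM in the DM rats and at 1.62, 1.78 and 1.32 FPKM in the Nor rats. All DM rats were below all Nor rats, with a log2 fold change of -0.76 and an adjusted p of 0.451 from limma. Csf1r, the receptor of colony stimulating factor 1, which also stands in the macrophage list, was at 1.11, 1.32 and 1.38 FPKM in DM and at 2.22, 2.54 and 2.06 FPKM in Nor. Its groups did not overlap and its log2 fold change was -0.795 (adjusted p = 0.336 from limma).

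**Figure D5:**
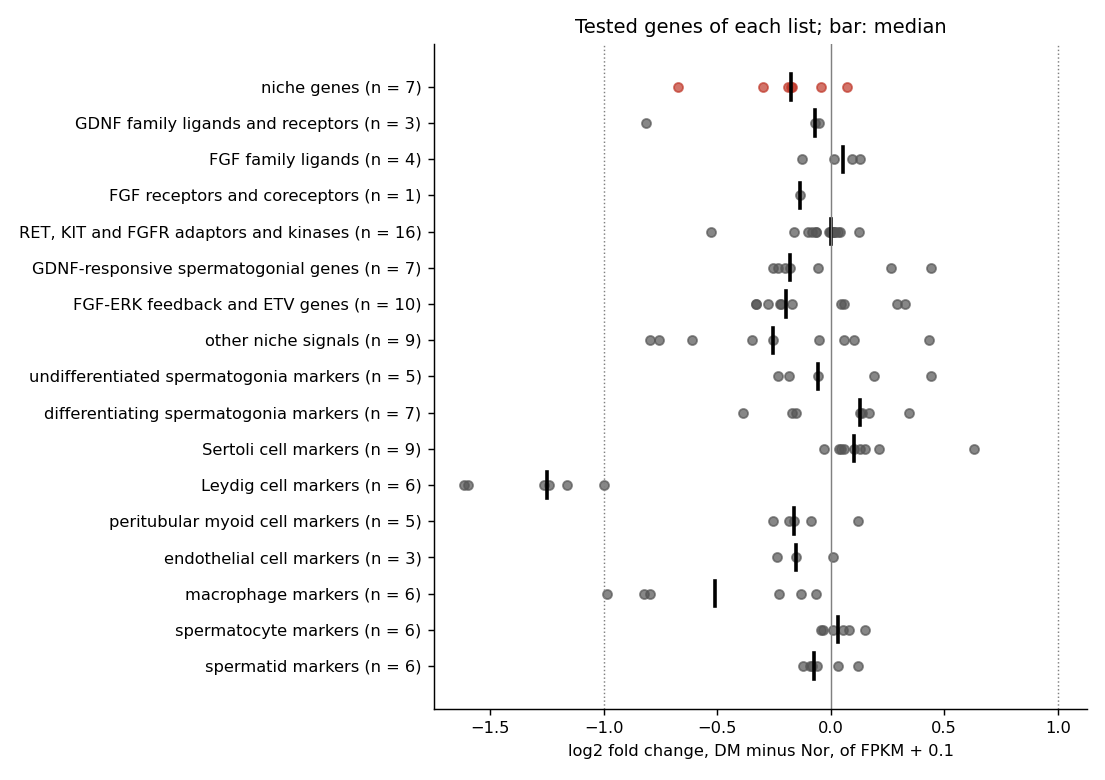
Log2 fold change (DM minus Nor, x axis) of each gene tested in the niche set (red) and in 16 other lists (grey), with a black bar at the median of each list and dotted lines at -1 and 1. The Leydig cell markers lie between -1.62 and -0.999, and the medians of the other lists lie between -0.51 and 0.13.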

How the data were processed

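Total RNA of rat testis was sequenced as paired ends on an Illumina instrument. The authors ran FastQC for quality, BWA against rRNA, STAR for alignment to the rat genome and StringTie for assembly. The build and the tool versions are not given in the sources used here. The deposited table holds FPKM, computed by the authors, for 35291 genes in 3 DM and 3 Nor libraries, without counts. The study screened transcripts with DESeq2, which needs counts and was not run here.

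Here log2(FPKM + 0.1) was compared between groups with limma 3.58.1 (R 4.3.3, eBayes with a mean-variance trend, two-sided), for genes averaging 0.5 FPKM or more. Ratios and single genes were compared by exact permutation (scipy 1.17.1, Python 3.11.15), two-sided. Relative depth came from the commonest ratio between libraries among genes under 1 FPKM, shared by 27 to 50 genes for each pair of libraries. No libraries were identical. The replicates are separate samples by their labels, and p-values measure the spread between these samples only.

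The 10 genes and the lists were chosen with earlier results of these data known. All 10 were named. Of each other list, every gene past the criterion was named, or else the 2 tested genes with the lowest p-value. Hsd3b1 and Pecam1 were listed as markers but matched no symbol. Nanos2, Id4, Tspan8 and Csf1r each stand in 2 lists. Grb2 labels 2 rows. The rule for genes with a profile like that of Fgfr1 took the 3 nearest, of which the nearest is given and the others are not reported here.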

Additional observations from a re-analysis of the deposited data

How the results depend on the processing

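Alternatives changed the pseudocount (1 or 0.01), the filter (none, or 1 FPKM on average), the scaling (TPM or median ratios), the eBayes settings (no trend, or robust), the genes tested (protein-coding), the rats included (each omitted once) and the use of replicate numbers. The counts of all genes at an adjusted p under 0.05 and of niche genes at an unadjusted p under 0.05, and the adjusted p of Cyp17a1, were followed only after seeing the data. In none of these fits did a niche gene meet the criterion. Over all genes tested, 253 genes met it, against 91 with a pseudocount of 1, 621 unfiltered, 85 when restricted to protein-coding genes and 7 with adjusted p-values, and 246 to 335 with a rat omitted. At an adjusted p under 0.05 stood 7 genes, against 3 unfiltered, 12 when eBayes had no trend and 36 when restricted to protein-coding genes. With a rat omitted this number ran from 0 (without Nor replicate 3) to 11 (without Nor replicate 1) and was 4 without DM replicate 1. The number of niche genes with an unadjusted p under 0.05 was 2, and with a rat omitted it ran from 0 (without DM replicate 2 or Nor replicate 2) to 2, with 1 without DM replicate 3, Nor replicate 1 or Nor replicate 3. The count of list genes past the criterion, 5, ran from 4 to 7.

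Directions turned for Gdnf, Ret, Etv5 and a pair of ratios. With a rat omitted, the log2 fold change of Gdnf ran from -0.45 to 0.028, that of Ret from -0.077 to 0.29 and that of Etv5 from -0.090 to 0.0091. The log2 ratio of Gdnf to Kitlg differed by -0.28 to 0.24 and was -0.011 with a pseudocount of 0.01, and that of Gfra1 to Kit by -0.039 to 0.22. Kitlg, Kit, Fgfr1 and Gfra1 were lower in DM in every fit run. The cause of these shifts was not tested.

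The replicate numbers are not stated to pair animals. Deviations of same-numbered rats correlated at 0.106, 0.0153 and 0.0979, and those of differently numbered rats at -0.126 to 0.0318. DM replicate 2 correlated most with Nor replicate 3 (0.0318). Whether the numbers stand for a pairing or a shared handling was not tested. With the replicate number as a block 284 genes met the criterion and 4 reached an adjusted p under 0.05, and Kit and Fgfr1 kept unadjusted p-values from limma of 0.0470 and 0.0460. Precision is limited by 3 rats per group and, for Gdnf, Fgf2, Fgfr3 and Bcl6b, by low values.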
